A study of Mus musculus with 24 samples.

Results

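Matrix metalloproteases (MMPs), the ADAMTS proteases with their ADAMTS-like relatives, and the tissue inhibitors of metalloproteases (TIMPs) were examined in mouse liver macrophages, hepatic endothelial cells (ECs) and whole liver. The genes were taken by symbol, as every Mmp, Timp, Adamts and Adamtsl gene listed in all 4 count tables, and this rule uses no expression value. This gave 51 genes of the 48820 entries in each table, namely 23 Mmp, 4 Timp, 19 Adamts and 5 Adamtsl genes. Bulk RNA-seq had been made from 24 libraries in 8 groups of 3.

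All mice were on the C57BL/6 background. Gdf2 and Bmp10 encode circulating ligands of the BMP family that signal through ALK1 receptors and SMAD4. In the HSC-KO mice both genes were floxed (Gdf2 fl/fl and Bmp10 fl/fl) and deleted by Lrat Cre, a recombinase that the Lrat promoter drives in hepatic stellate cells (HSCs), and their controls are labelled control (the knockouts Bmp9/10-HSC-KO, after the older names of the ligands). Macrophages (CD45+Ly6C-F4/80+CD64+) and ECs (CD45-CD31+) of these mice were sorted at 8 to 10 weeks of age, those of the Smad4 mice included, and whole livers were taken at 12 weeks. The Smad4 cKO mice (Smad4 fl/fl Vav1 Cre) carry a Cre that deletes Smad4 in cells of haematopoietic origin, and only macrophages, of the same sort, were sequenced from them and from their Smad4FF controls, taken from the label to carry the floxed Smad4 alleles without Cre. The labels show that 3 mice gave both a macrophage and an EC library, 1 control and 2 HSC-KO mice. Nothing in the labels ties further libraries to 1 animal, and the adjusted p-values measure the spread between these libraries.

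MMPs are zinc-dependent proteases, mostly secreted as inactive proenzymes, which cut collagens, elastin, basement membrane and many cell surface proteins. Membrane-type MMPs stay anchored in the plasma membrane, and one of them, MMP14, activates pro-MMP2 in a complex that includes TIMP2. ADAMTS enzymes cut proteoglycans such as versican and aggrecan, process procollagens or cleave von Willebrand factor, whereas ADAMTS-like proteins have no protease domain and bind fibrillin microfibrils. TIMPs block MMPs by binding their active site, and TIMP3, which stays bound to the matrix, also blocks several ADAM and ADAMTS enzymes. In the liver these genes are best known from fibrosis, in which HSCs and macrophages deposit and remove collagen.

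Total counts ran from 60911527 to 110879155 per library with a median of 85451301. In the livers, Gdf2 fell from 18.5, 9.33 and 22.5 CPM (read counts scaled to library size) in the controls to 3.84, 2.12 and 2.64 CPM, and Bmp10 from 3.29, 2.71 and 1.99 CPM to 0.0937, 0.262 and 0.112 CPM. Smad4 stood at 40.3, 35.1 and 43.0 CPM in Smad4FF macrophages and at 17.2, 12.5 and 15.4 CPM in Smad4 cKO macrophages. The summed level of 10 Kupffer cell markers, all detected, was 46134 to 48752 CPM in control macrophages and 14435 to 15467 CPM in HSC-KO macrophages, while 8 monocyte markers together went from 180 to 260 CPM up to 1588 to 2330 CPM. In the Smad4 libraries the Kupffer cell sum was 43723 to 53274 CPM in the controls and 15996 to 20064 CPM in the knockouts, and the monocyte sum went from 174 to 232 CPM up to 658 to 941 CPM, with 1 of its 8 markers called higher and 2 lower. HSC-KO EC replicate 1 stood apart from the other HSC-KO EC libraries: Stab2, a scavenger receptor of sinusoidal ECs, was 960 CPM there, against 117 and 99.9 CPM in the other two and 2163 to 2440 CPM in the control ECs. By Xist, the livers were all from females except HSC-KO replicate 3, both sexes were present in each HSC-KO and control group of macrophages and ECs, and the Smad4 libraries were all from males. In these bulk libraries fewer cells of a type and less RNA per cell cannot be told apart.

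Promoters of 4 members are shown because their genes carry the results that follow: Mmp13 rose and Mmp27, of the same chromosomal cluster, fell in macrophages, Timp4 went from near 0 to a clear signal in ECs, and Adamtsl2 was the member that rose in both ECs and whole liver with the highest liver level per kb. The sequences are the 250 bases before each RefSeq start (GRCm38.p6), 5′ to 3′ on the gene's strand. They lie at chr9:7272264-7272513 (Mmp13, plus strand), chr9:7571146-7571395 (Mmp27, plus strand), chr6:115252206-115252455 (Timp4, minus strand) and chr2:27079129-27079378 (Adamtsl2, plus strand). Capitals mark matches to the AP-1 element (TGANTCA) and to the TATA box (TATAAA).
Mmp13: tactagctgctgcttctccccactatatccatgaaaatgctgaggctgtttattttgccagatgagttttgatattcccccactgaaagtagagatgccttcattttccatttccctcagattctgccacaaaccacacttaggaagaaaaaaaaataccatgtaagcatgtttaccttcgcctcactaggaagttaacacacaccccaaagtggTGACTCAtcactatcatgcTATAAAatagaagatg
Mmp27: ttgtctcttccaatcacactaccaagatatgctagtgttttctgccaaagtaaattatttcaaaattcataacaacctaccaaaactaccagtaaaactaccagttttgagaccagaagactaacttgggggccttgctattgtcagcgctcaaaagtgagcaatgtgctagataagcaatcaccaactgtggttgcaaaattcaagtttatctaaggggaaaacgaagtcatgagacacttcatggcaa
Timp4: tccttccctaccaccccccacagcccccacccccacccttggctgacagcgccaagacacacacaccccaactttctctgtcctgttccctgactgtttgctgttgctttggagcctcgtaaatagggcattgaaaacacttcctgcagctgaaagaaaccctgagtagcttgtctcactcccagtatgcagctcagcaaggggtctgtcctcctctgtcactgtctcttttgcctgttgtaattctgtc
Adamtsl2: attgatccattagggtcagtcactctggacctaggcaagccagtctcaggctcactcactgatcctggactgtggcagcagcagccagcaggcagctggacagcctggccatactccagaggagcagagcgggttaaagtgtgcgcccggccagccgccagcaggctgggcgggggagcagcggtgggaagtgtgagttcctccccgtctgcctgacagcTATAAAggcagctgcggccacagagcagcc

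The AP-1 match of Mmp13 began 35 bases and its TATA box 16 bases before the start, and the TATA box of Adamtsl2 began 30 bases before the start. None of the letters searched was found in the Mmp27 and Timp4 windows, which says only that they are not in those 250 bases. Both strands were searched for these elements, for a GC-rich element known from BMP-responsive genes with the letters GGCGCC, and for a palindrome bound by SMAD proteins with the letters GTCTAGAC. RefSeq windows were found for 36 of the 51 members. The AP-1 letters were present in 8 of these 36 and in 6.75% of 32851 windows of all genes, the TATA box in 10 and 12.4%, the GC-rich element in 6 and 9.59%, and the palindrome in 0 and 0.167%. All 8 members with the AP-1 letters (Mmp1a, Mmp1b, Mmp3, Mmp7, Mmp10, Mmp12, Mmp13 and Mmp20) lay in a cluster of 10 Mmp genes that spans 427 kb of chromosome 9. A match is a description of the sequence and not a binding site.

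In control livers and sorted control cells, the same gene family was carried by different members. Levels are compared between genes as CPM per kilobase of exon. Timp2 led in control macrophages at 47.3 ± 1.82 CPM per kb (SD, n = 3), followed by the gelatinase Mmp9 at 11.2 ± 4.04, Mmp27 at 8.39 ± 1.74, Mmp19 at 4.21 ± 0.605, Mmp14 at 3.70 ± 1.11, the collagenase Mmp13 at 2.02 ± 0.484, the macrophage elastase Mmp12 at 1.17 ± 0.105 and the microfibril-associated Adamts10 at 0.889 ± 0.0323. The ranges of Mmp9 and Mmp27 overlapped, as did those of Mmp19 and Mmp14, so that their order is not resolved. Smad4FF macrophages were also led by Timp2, at 24.7 CPM per kb, followed by Mmp9 at 9.17, Mmp27 at 7.97 and Timp3 at 7.62 ± 5.16 CPM per kb, whose ranges overlapped. That Timp3 value varied widely, at 58.3, 22.0 and 106 CPM in libraries with EC marker sums of 1952, 784 and 1788 CPM. The part of EC transcripts in it was not tested.

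In control ECs Timp3 led at 129 CPM per kb, ahead of Mmp14 at 60.6, the versican-cleaving Adamts1 at 20.7, Adamts7 at 6.23, the aggrecanase Adamts4 at 6.09, Timp2 at 4.54, Adamts10 at 3.55 and Mmp19 at 0.946 CPM per kb. Adamts7 and Adamts4 overlapped, and so did Timp2 and Adamts10. Whole control liver was led by Mmp19 at 24.2 CPM per kb, which was under 5 CPM per kb in both sorted cell types, then Mmp14 at 9.12 and the membrane-type Mmp15 at 6.77, whose ranges overlapped. Timp2 at 4.78 and Timp3 at 3.50 overlapped as well, and Adamts1, Adamtsl2 and Adamts10 followed at 2.07, 1.49 and 1.48 CPM per kb with overlapping ranges. Macrophages, ECs and livers were normalized in separate tables, so these levels are set side by side without a test.

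The 4 members Mmp1a, Mmp1b, Mmp10 and Mmp20 had 0 counts in all 24 libraries. Timp1, the inhibitor that is a common marker of injured liver, was low in the controls: it reached at most 40 counts in any control library and was at 0 in control macrophage replicate 3 and control liver replicate 2.

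**Figure D1:**
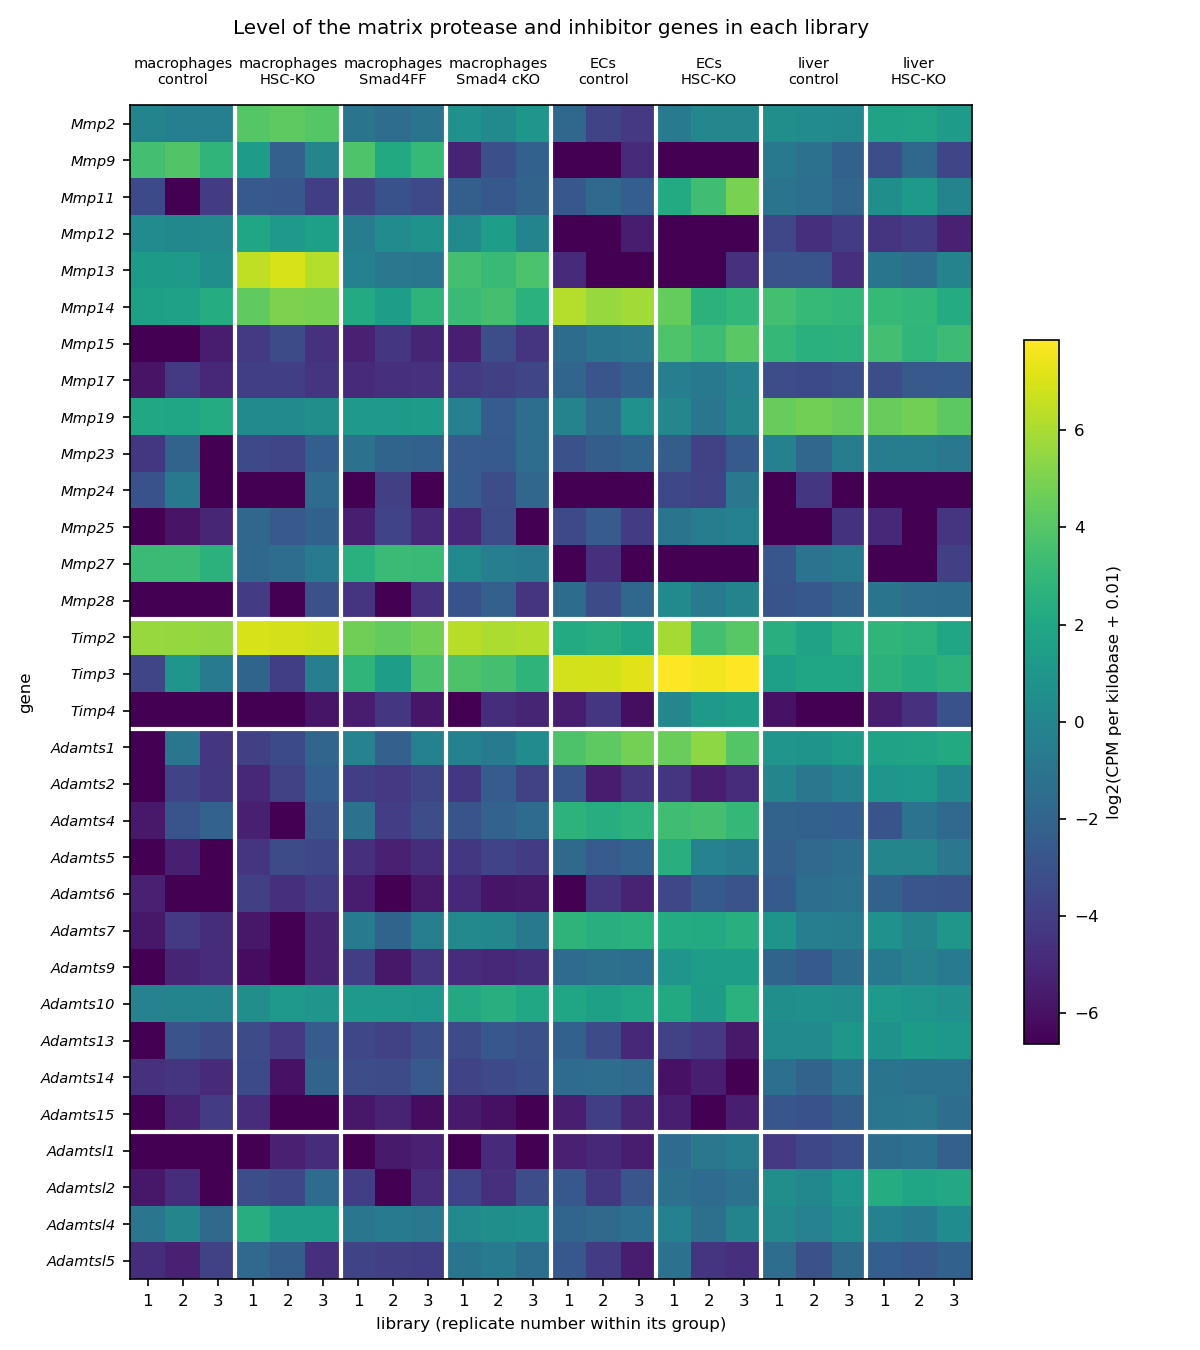
Level in each of the 24 libraries (columns, by group) of the 32 members with a mean of at least 1 CPM in some group (rows), coloured by log2 of CPM per kilobase plus a constant of 0.01. Timp2, Mmp9 and Mmp27 stood out in the control macrophage columns, Timp3 in the EC columns, Mmp14 in the control EC columns, and Mmp19 in the liver columns.

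Control ECs and control macrophages were compared directly in 1 fit of both tables. Of 31 members tested, 22 differed by edgeR's quasi-likelihood test (Benjamini-Hochberg adjusted p under 0.05 and absolute log2 fold change above 1; such genes are named as called, higher or lower throughout), 15 higher in ECs and 7 higher in macrophages, against 35.9% of all 16160 genes tested (17.9% and 18%). For 25 members the groups did not overlap, 18 higher and 7 lower in ECs, against 62.3%, 31.2% and 31.1% of all genes. All 8 called Adamts genes were higher in ECs, among them Adamts7 by a log2 fold change of 7.62 (SE 0.49, adjusted p = 2.7e-05, edgeR) and Adamts1 by 6.61 (SE 1.39, adjusted p = 0.0064, edgeR). Timp3 was higher in ECs by 7.03 (SE 1.14, adjusted p = 0.002, edgeR) and Mmp14 by 3.84 (SE 0.29, adjusted p = 5e-05, edgeR). The members higher in macrophages were Mmp9, Mmp27, Mmp12, Mmp13, Timp2, Mmp2 and Mmp19. The Mmp2 call was lost without control EC replicate 2 (-2.44, adjusted p = 0.055, edgeR), and the Adamts1 value became 10.09 without control macrophage replicate 2. Mmp9 had 3367, 4544 and 1457 counts in control macrophages and 0, 0 and 6 in control ECs, and Mmp27 had 1762, 1745 and 817 against 0, 4 and 0. The control macrophage libraries also held EC markers, at sums of 529 to 722 CPM against 12292 to 13081 CPM in control ECs, and Timp3 was highest, at 15.1 CPM, in the macrophage library with the highest sum. The EC marker list includes Cdh5, which the paper places among genes of Kupffer cell identity, so these sums need not come from ECs alone. The part of EC transcripts in the low macrophage values was not tested.

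The next comparison asked how the family changed in liver macrophages when Gdf2 and Bmp10 were deleted in HSCs. Mmp13, Mmp2, Mmp14 and Timp2 were among the members that rose, and Mmp9, Mmp27 and Mmp19 fell. Of 31 members tested, 8 were higher and 3 lower (edgeR), that is 11 called, against 11.7% of 16337 genes called in either direction, 6.32% called higher and 5.34% called lower. The groups did not overlap for 16 members, 13 of them higher and 3 lower in HSC-KO, against 40.3%, 20.7% and 19.6% of all genes tested. The remaining 20 members of the 51 did not pass the low-count filter. The filter keeps a gene counted in 1 group alone, so the share among tested members is a description. The median log2 fold change of the 31 was 1.32, and that of all genes tested 0.04.

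Mmp13, the main interstitial collagenase of rodents, was 6.25, 6.07 and 3.92 CPM in control macrophages and 235, 334 and 200 CPM in HSC-KO macrophages. Every HSC-KO library was far above every control, a log2 fold change of 5.56 (SE 0.28, adjusted p = 4.8e-05, edgeR). The gelatinase Mmp2 went from 3.13, 2.55 and 2.51 CPM to 56.1, 64.5 and 55.9 CPM, a log2 fold change of 4.42 (SE 0.16, adjusted p = 1.8e-05, edgeR), and again no library overlapped. Mmp14, whose product activates pro-MMP2, rose from 17.9, 18.6 and 29.7 CPM to 120, 193 and 180 CPM, by 2.89 (SE 0.27, adjusted p = 0.00043, edgeR). Timp2, the third partner of that complex, rose from 191, 186 and 177 CPM to 500, 477 and 425 CPM, by 1.34 (SE 0.12, adjusted p = 0.00033, edgeR). Per kilobase, HSC-KO macrophages were thus led by Timp2 at 120 and Mmp13 at 96.0, whose ranges overlapped, then Mmp14 at 27.6 and Mmp2 at 17.4 CPM per kb.

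The remaining higher members were expressed at lower levels. Mmp12 went from 9.30, 7.84 and 8.17 CPM to 26.5, 16.3 and 21.4 CPM (log2 fold change 1.34, SE 0.20, adjusted p = 0.0039, edgeR). Adamtsl4, a fibrillin-binding protein, went from 2.17, 4.02 and 1.31 CPM to 21.6, 11.8 and 11.3 CPM (2.57, SE 0.45, adjusted p = 0.0069, edgeR). In both genes the groups were clear of each other. Mmp25, a GPI-anchored MMP known from leukocytes, had 0, 3 and 6 counts in the controls and 134, 80 and 104 counts in HSC-KO macrophages (adjusted p = 0.018, edgeR), a low level throughout. Adamts10 rose from 7.03, 7.49 and 7.50 CPM to 11.7, 18.2 and 15.7 CPM (1.05, SE 0.20, adjusted p = 0.0095, edgeR).

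Among the lower members, Mmp27 fell from 20.9, 20.6 and 14.1 CPM to 0.639, 0.778 and 1.37 CPM (log2 fold change -4.32, SE 0.35, adjusted p = 0.00024, edgeR). Mmp27 lies 288 kb from Mmp13 in the chromosome 9 cluster, so that the 2 genes whose promoters are printed above moved in opposite directions within it. Mmp19 fell from 13.8, 13.5 and 17.3 CPM to 4.23, 4.22 and 4.96 CPM (-1.74, SE 0.19, adjusted p = 8e-04, edgeR), and exons of this gene overlap those of Tmem198b on the other strand. Mmp9, the gelatinase of neutrophils and macrophages, fell from 39.9, 53.7 and 25.2 CPM to 8.84, 0.747 and 3.43 CPM (-3.19, SE 0.77, adjusted p = 0.025, edgeR). The 2 gelatinases therefore moved in opposite directions. The Mmp9 call was lost without control replicate 2 (adjusted p = 0.073, edgeR) or without HSC-KO replicate 3 (adjusted p = 0.084, edgeR). That of Mmp25 was lost without control replicate 2 (adjusted p = 0.071, edgeR), without HSC-KO replicate 1 (adjusted p = 0.073, edgeR) or with replicate number as a block (adjusted p = 0.052, edgeR). Adamts10 dropped to 0.90 without HSC-KO replicate 2 and to 0.92 with sex as a covariate, under the fold threshold.

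Of the other inhibitors, Timp3 varied too widely for a call, with 50, 1273 and 304 counts in control and 177, 42 and 539 counts in HSC-KO macrophages (log2 fold change -1.32, SE 1.13, adjusted p = 0.47, edgeR). Timp1 had at most 17 counts and Timp4 at most 4 counts in any of these 6 libraries. A further 5 members stood higher in every HSC-KO library without a call. Of these, Adamtsl2, a protein that binds latent TGFβ-binding protein, had 6, 18 and 0 counts in the controls and 72, 60 and 235 counts in the knockouts (adjusted p = 0.055, edgeR), and the aggrecanase Adamts5 had 0, 13 and 0 counts and 36, 91 and 79 counts (adjusted p = 0.098, edgeR). DESeq2 called both (adjusted p = 0.00095 and 0.017). The other 3, Adamts6, Mmp15 and Mmp21, had at most 46 counts in any of these libraries (adjusted p = 0.11 to 0.17, edgeR).

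The share of the summed CPM per kb of all members that the Timp genes took was 55.8% to 61.6% in control and 39.6% to 47.8% in HSC-KO macrophages. With these changes, the Kupffer cell sum was lower and the monocyte sum higher, as given above. Of 10 Kupffer cell markers 5 were called lower and 0 higher, and of 7 monocyte markers tested 5 were called higher and 1 lower. EC markers, among them Cdh5, went from 529 to 722 CPM down to 31.5 to 85.1 CPM, with 5 of 12 called lower. Markers of activated fibroblasts, in which Mmp2 and Mmp13 are also known, summed to 5.29 to 7.34 CPM in control and 5.53 to 13.04 CPM in HSC-KO macrophages, and stellate cell markers to 104 to 190 CPM and 67.9 to 176 CPM. Neutrophil markers, of which 6 of 10 were detected, were 1.25 to 3.80 CPM and 0.0315 to 2.11 CPM. Lymphocyte markers went from 13.1 to 23.4 CPM up to 36.7 to 119 CPM, with 3 of 7 called higher. The part of the change in macrophage makeup in the member values was not tested.

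**Figure D2:**
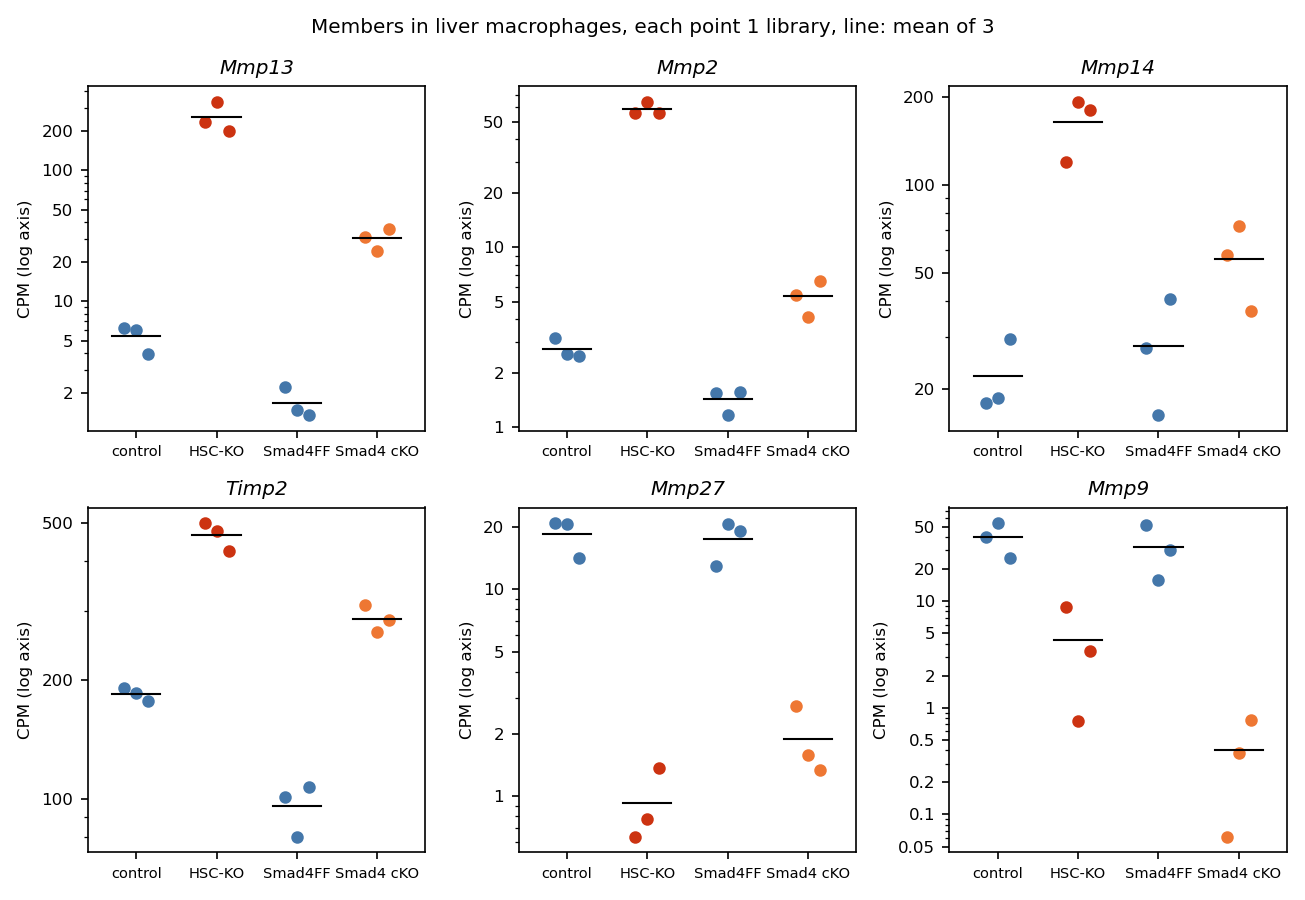
CPM of 6 members in the 12 macrophage libraries on log axes, each point 1 library and each line a group mean of 3. Mmp13, Mmp2 and Timp2 were higher in both knockouts than in their own controls with no overlap, Mmp27 and Mmp9 were lower in both, and Mmp14 overlapped between Smad4FF and Smad4 cKO.

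Macrophages of mice with a deletion of Smad4, the shared signal transducer of BMP and TGFβ receptors, were compared with Smad4FF macrophages to follow the same genes when the defect lies in the haematopoietic cells. Of 32 members tested, 6 were higher and 3 lower (edgeR), so 9 called, against 5.43% of 17517 genes, 2.76% higher and 2.67% lower. The groups of 15 members did not overlap, 11 higher and 4 lower, against 29.4%, 15% and 14.5% of all genes. Mmp13 rose from 2.19, 1.48 and 1.34 CPM to 30.8, 24.1 and 35.8 CPM (log2 fold change 4.18, SE 0.26, adjusted p = 0.00018, edgeR). Timp2 rose from 101, 80.0 and 107 CPM to 310, 264 and 284 CPM (1.58, SE 0.14, adjusted p = 0.00093, edgeR). Mmp2 was again higher, at 1.56, 1.17 and 1.58 CPM in the controls and 5.44, 4.11 and 6.50 CPM in the knockouts (1.90, SE 0.26, adjusted p = 0.005, edgeR), but stayed at a low level. No knockout library reached down to a control in these 3 genes.

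Mmp27 fell from 12.99, 20.7 and 19.1 CPM to 2.74, 1.59 and 1.35 CPM (log2 fold change -3.21, SE 0.33, adjusted p = 0.0015, edgeR). Mmp9 fell from 51.2, 15.9 and 30.2 CPM to 0.0619, 0.377 and 0.763 CPM (-6.35, SE 0.82, adjusted p = 0.0041, edgeR), the steepest fall among the tested members here. Mmp19 fell from 8.19, 7.88 and 8.78 CPM to 2.81, 0.633 and 1.30 CPM (-2.39, SE 0.49, adjusted p = 0.027, edgeR). The 3 members that fell in HSC-KO macrophages were thus the 3 that fell here. Neutrophil markers summed to 2.20 to 4.71 CPM in Smad4FF and 1.53 to 6.38 CPM in Smad4 cKO macrophages, and their part in the Mmp9 values was not tested. In the same libraries the cholangiocyte sum went from 4.45 to 5.77 CPM up to 10.4 to 22.8 CPM, with 1 of 6 tested markers called higher. The stellate cell sum went from 205 to 238 CPM down to 143 to 195 CPM, but of its 12 markers 1 was called higher and 1 lower. Their median log2 fold change was 0.0893, against 0.036 for all genes tested.

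Adamts10 rose from 18.1, 18.9 and 17.2 CPM to 35.9, 45.0 and 33.9 CPM (1.09, SE 0.15, adjusted p = 0.005, edgeR), and Adamtsl4 from 2.15, 2.57 and 2.35 CPM to 5.08, 6.32 and 6.36 CPM (1.34, SE 0.20, adjusted p = 0.008, edgeR). Adamtsl5, a fibrillin-binding protein without a call in HSC-KO macrophages, rose from 0.321, 0.265 and 0.263 CPM to 2.26, 2.84 and 1.72 CPM (3.01, SE 0.33, adjusted p = 0.0017, edgeR). Mmp14 was 27.5, 16.2 and 40.6 CPM in the controls and 57.4, 72.4 and 36.8 CPM in the knockouts, overlapping groups without a call (0.99, SE 0.36, adjusted p = 0.16, edgeR). Timp3 was 58.3, 22.0 and 106 CPM and 115, 96.7 and 56.9 CPM (0.54, SE 0.51, adjusted p = 0.63, edgeR), in libraries whose EC marker sums were 784 to 1952 CPM and 1382 to 1642 CPM. Mmp12, Timp1 and Timp4 were not called either, at adjusted p = 0.73, 0.78 and 0.90 (edgeR). Adamts10 dropped to 0.95, under the fold threshold, without knockout replicate 2, the Adamtsl4 call was lost without Smad4FF replicate 3 (adjusted p = 0.052, edgeR), and the Mmp19 call was lost without any one Smad4FF library or without knockout replicate 3 (adjusted p = 0.068 to 0.094, edgeR).

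Side by side, 28 members were tested in both macrophage comparisons, which share no control library. Of these, 8 were called in both and each in the same direction: Mmp2, Mmp13, Timp2, Adamts10 and Adamtsl4 higher, and Mmp9, Mmp19 and Mmp27 lower. Of the 15982 genes tested in both, 3.75% were called in both and 3.72% in the same direction. The 8 members were 8 of the 11 called in HSC-KO and 8 of the 9 called in Smad4 cKO macrophages. A direct test of the difference between the 2 changes called 1 of 35 members, Mmp2, against 2.61% of all 18149 genes (1.42% higher and 1.18% lower): it rose further in HSC-KO macrophages by a log2 difference of 2.57 (SE 0.27, adjusted p = 6e-04, edgeR). For Mmp13 and Mmp14 that difference was 1.43 (SE 0.36, adjusted p = 0.057, edgeR) and 1.95 (SE 0.48, adjusted p = 0.056, edgeR), and both were called by DESeq2 or when genes with a mean count under 50 were left out, which makes 3 called members in each of those fits. Mouse line cannot be told apart from the table in which the libraries were counted. The Timp share of the summed CPM per kb moved the other way here, from 47.7% to 54.0% in Smad4FF up to 68.4% to 72.6% in Smad4 cKO macrophages.

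In ECs the question was how the same deletion changed the family there. Among others Mmp15, Mmp11, Timp4, Timp2 and the versican-cleaving Adamts9 rose, and Mmp14, the leading MMP of control ECs, fell. Of 32 members tested, 14 were higher and 2 lower (edgeR), so 16 called, against 13.7% of 16053 genes, 7.68% higher and 6.01% lower. For 21 members the groups did not overlap, 19 higher and 2 lower, against 40.4%, 20.2% and 20.2% of all genes. By family the calls were 9 of 11 tested Mmp, 2 of 4 Timp, 3 of 13 Adamts and 2 of 4 Adamtsl genes. The median log2 fold change was 1.18 for the 32 members and 0.0048 for all genes tested.

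Mmp15, a membrane-type MMP, was 1.85, 2.60 and 3.00 CPM in control ECs and 79.4, 54.9 and 95.5 CPM in HSC-KO ECs (log2 fold change 4.95, SE 0.30, adjusted p = 8.8e-05, edgeR). Mmp11 (stromelysin-3), which is secreted in active form, went from 0.391, 0.828 and 0.525 CPM to 12.7, 29.5 and 85.8 CPM (6.21, SE 0.79, adjusted p = 0.0017, edgeR). Neither gene overlapped between groups, though Mmp11 varied several-fold among the knockouts. Mmp14 moved the other way, from 448, 294 and 341 CPM to 130, 38.7 and 46.0 CPM (-2.34, SE 0.46, adjusted p = 0.011, edgeR), and was least reduced in replicate 1, the library with the most Stab2. Per kilobase, Mmp14 went from second among the members, at 60.6, to sixth, at 12.02 CPM per kb, with Mmp15 at 14.2 and Mmp11 at 15.4, but the ranges of the 3 genes overlapped in HSC-KO ECs and their order there is not resolved.

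Further Mmp genes came up from low levels, among them the membrane-type Mmp16 and Mmp24. Mmp16 had 0 counts in each control and 35, 77 and 81 counts in the HSC-KO libraries, at least 19.4-fold higher against a floor of 3 counts per library (adjusted p = 0.006, edgeR). Mmp24 had 0 counts in each control and 35, 23 and 214 counts, at least 26.3-fold higher (adjusted p = 0.019, edgeR) but at least 8.25-fold without HSC-KO replicate 3, and its exons overlap those of BC029722 on the other strand. These floors cover counting error only. The GPI-anchored Mmp17 rose from 1.70, 0.876 and 1.45 CPM to 4.76, 3.80 and 5.61 CPM (1.81, SE 0.33, adjusted p = 0.0086, edgeR) and Mmp25 from 0.428, 0.909 and 0.269 CPM to 2.47, 3.74 and 4.38 CPM (2.73, SE 0.51, adjusted p = 0.0088, edgeR). Both stayed under 6 CPM in all EC libraries. Mmp2 rose from 0.991, 0.227 and 0.148 CPM to 2.10, 3.55 and 3.52 CPM (2.73, SE 0.71, adjusted p = 0.033, edgeR), and Mmp28 from 1.31, 0.341 and 1.13 CPM to 4.45, 2.48 and 3.42 CPM (1.88, SE 0.52, adjusted p = 0.039, edgeR).

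Among the inhibitors, Timp4 was at 6, 14 and 2 counts in the controls and 578, 919 and 1280 counts in HSC-KO ECs, that is 0.0734, 0.227 and 0.0269 CPM against 6.18, 12.8 and 15.6 CPM (log2 fold change 6.77, SE 0.70, adjusted p = 0.00071, edgeR). Timp2 went from 18.5, 20.1 and 14.5 CPM to 233, 45.3 and 66.9 CPM (2.69, SE 0.58, adjusted p = 0.016, edgeR), with replicate 1 far above the others. Timp3 was 948, 1003 and 1197 CPM in control and 1891, 1615 and 1826 CPM in HSC-KO ECs, no overlap but a change under the fold threshold (0.76, SE 0.18, adjusted p = 0.021, edgeR). Its exons share 1733 bases with Syn3 on the other strand. Timp1 was higher in each HSC-KO library without a call, at 28, 31 and 40 counts against 121, 71 and 52 (1.07, SE 0.48, adjusted p = 0.17, edgeR). Together the Timp genes took 52.2% to 60.0% of the members' summed CPM per kb in control and 68.6% to 74.8% in HSC-KO ECs.

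Of the ADAMTS genes, Adamts9 rose from 4.97, 6.04 and 5.45 CPM to 28.3, 42.6 and 41.1 CPM (log2 fold change 2.77, SE 0.21, adjusted p = 0.00018, edgeR), with the groups clear of each other, and A730049H05Rik overlaps its exons on the other strand. Adamts5 went from 3.40, 1.82 and 2.45 CPM to 60.0, 9.30 and 7.25 CPM (3.31, SE 0.83, adjusted p = 0.028, edgeR), again with replicate 1 far above the rest. Adamts14, a procollagen N-propeptidase, fell from 1.70, 1.80 and 1.56 CPM to 0.0321, 0.0696 and 0 CPM (-5.61, SE 0.84, adjusted p = 0.0036, edgeR). Adamtsl1 rose from 0.196, 0.276 and 0.161 CPM to 4.17, 6.78 and 8.54 CPM (4.94, SE 0.41, adjusted p = 0.00026, edgeR), and Adamtsl2 from 1.19, 0.325 and 1.06 CPM to 3.18, 2.59 and 3.30 CPM (1.80, SE 0.49, adjusted p = 0.037, edgeR). Adamts1, the leading ADAMTS gene of ECs, was 74.6, 103 and 152 CPM in control and 126, 224 and 83.4 CPM in HSC-KO ECs, which overlapped (0.39, adjusted p = 0.55, edgeR). Adamts1 and Adamts5 lie 53.1 kb apart on chromosome 16. Adamts4 was 31.7, 24.9 and 31.3 CPM and 51.8, 56.5 and 39.4 CPM, under the fold threshold (0.75, SE 0.18, adjusted p = 0.024, edgeR). Exons of Mmp11, Timp4, Mmp28, Adamts4 and Adamts7 also overlap a gene on the other strand, whose reads cannot be told apart here.

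Leaving out 1 EC library at a time, 11 of the 16 calls were kept in every fit. Timp2 and Adamts5 were lost without any one control (adjusted p = 0.051 to 0.093, edgeR), Mmp28 without any library except control replicate 2, and Adamtsl2 likewise (adjusted p = 0.055 to 0.10 over both, edgeR). Mmp2 was lost without control replicates 2 or 3 or HSC-KO replicates 2 or 3 (adjusted p = 0.072 to 0.093, edgeR) and with replicate number as a block (adjusted p = 0.052, edgeR). Without HSC-KO replicate 1, 13 members were higher and 2 lower, and the log2 fold changes of Adamts5 and Timp2 dropped to 1.70 and 1.67, both still called. With sex as a covariate Timp2, Adamts5, Adamtsl2 and Mmp28 were not called (adjusted p = 0.051 to 0.065, edgeR). When libraries were scaled by total counts alone, which moved the median of all genes to 0.30, Adamts4, Timp3 and Adamtsl4 came to 1.03, 1.06 and 1.47 and were also called. Adamtsl4 was higher in each HSC-KO EC library, at 1.09, 1.30 and 1.59 CPM against 3.38, 1.67 and 3.80 CPM (1.15, SE 0.39, adjusted p = 0.077, edgeR), and DESeq2 and the fit without HSC-KO replicate 2 called it too (adjusted p = 0.027 and 0.036). Kupffer cell markers in the EC libraries were 60.6 to 73.9 CPM in control and 3.28 to 4.93 CPM in HSC-KO ECs, where Clec4f was at 0 in each library. Monocyte markers went from 15.3 to 15.5 CPM up to 86.0 to 120 CPM, with 2 of 4 tested called higher, and neutrophil markers, of which 2 of 10 were detected in HSC-KO ECs, from 0 to 0.0538 CPM up to 3.26 to 3.69 CPM. EC markers summed to 12292 to 13081 CPM and 12944 to 13541 CPM, and activated fibroblast markers to 47.6 to 49.4 CPM and 62.0 to 117 CPM, highest in replicate 1. Stellate cell markers went from 186 to 263 CPM down to 125 to 161 CPM, with 2 of 12 called lower. The part of these markers in the member values was not tested.

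**Figure D3:**
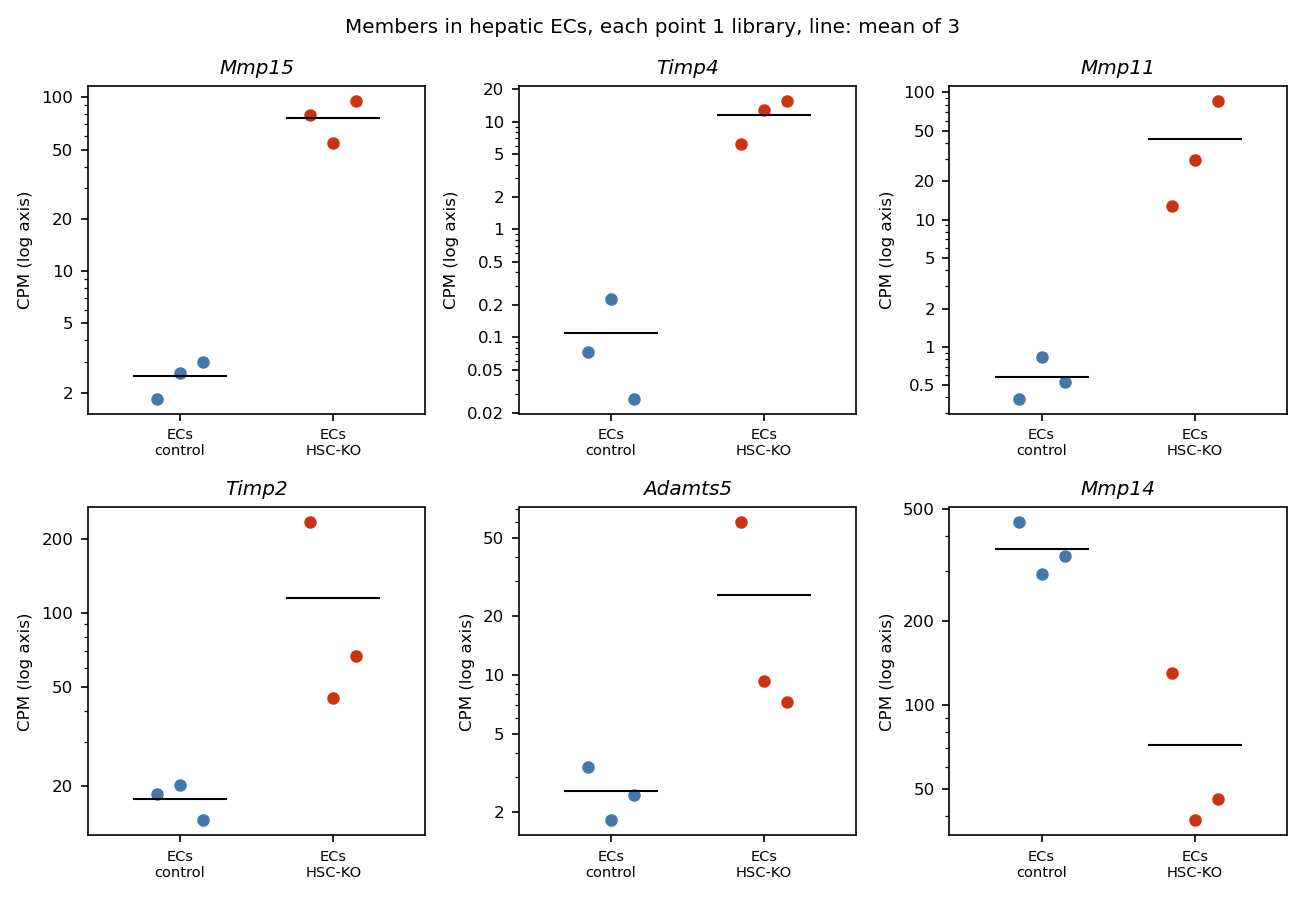
CPM of 6 members in control and HSC-KO ECs on log axes, each point 1 library and each line a group mean of 3. Mmp15, Timp4, Mmp11, Timp2 and Adamts5 were higher in each HSC-KO library and Mmp14 lower. Timp2 at 233 CPM and Adamts5 at 60.0 CPM were highest in HSC-KO replicate 1.

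Whether a member changed differently in ECs and in macrophages of HSC-KO mice was tested in 1 fit of both cell types, which treats the 12 libraries as independent although 3 of the 9 mice gave both. Of 38 members tested, 3 were called, 1 positive and 2 negative, against 12.3% of 18213 genes (6% and 6.32%). Mmp14, up in macrophages and down in ECs, differed by -5.24 on the log2 scale (SE 0.63, adjusted p = 3e-04, edgeR). Adamts14, down in ECs and uncalled in macrophages, differed by -7.45 (SE 1.59, adjusted p = 0.0092, edgeR), and Mmp11, up in ECs and uncalled in macrophages, by 4.79 (SE 1.29, adjusted p = 0.028, edgeR). The Mmp11 difference was not called without each of 7 of the 12 libraries in turn (adjusted p = 0.051 to 0.18, edgeR), namely control macrophages 1 or 3, HSC-KO macrophages 2 or 3, control ECs 1 or 3 and HSC-KO ECs 3. Timp2 rose in both cell types, with a difference of 1.35 (SE 0.65, adjusted p = 0.20, edgeR). Without HSC-KO macrophage replicate 3 the count was 5, as Adamts4, Adamts9 and Mmp24 came in and Mmp11 went out. DESeq2 called 7, adding Mmp12, Mmp13, Mmp16 and Mmp24. In a limma-voom fit with the mouse as a random effect, chosen after seeing the data, Mmp14 (-5.47, adjusted p = 6.7e-05) and Adamts14 (-6.77, adjusted p = 0.031) were called and Mmp11 was not (3.42, adjusted p = 0.56). Both this fit and limma-voom without the mouse term called Mmp16 as the third member, and Mmp11 had an adjusted p of 0.54 without that term.

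Whole livers of HSC-KO mice were compared with control livers at 12 weeks of age. Of 33 members tested, 5 were higher and 0 lower (edgeR), so 5 called, against 2.48% of 17118 genes, 1.03% higher and 1.45% lower. At an unadjusted p under 0.05 there were 14 higher and 2 lower members (Mmp27 and Adamts6), 16 in all, against 5.92%, 7.01% and 12.9% of all genes. The groups of 14 members did not overlap, 13 higher and 1 lower, against 19.7%, 8.8% and 10.9% of all genes. Mmp2 rose from 4.84, 4.28 and 3.88 CPM to 10.98, 11.9 and 8.76 CPM (log2 fold change 1.28, SE 0.18, adjusted p = 0.013, edgeR). Adamtsl2 rose from 11.5, 8.62 and 15.7 CPM to 40.9, 29.8 and 33.8 CPM (1.54, SE 0.23, adjusted p = 0.016, edgeR). The proteoglycan-cleaving Adamts15 went from 1.40, 1.18 and 1.91 CPM to 5.21, 5.49 and 3.67 CPM (1.67, SE 0.28, adjusted p = 0.025, edgeR). In each of the 3 genes all HSC-KO livers were above all controls.

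Mmp11 went from 1.28, 1.06 and 0.697 CPM to 4.14, 6.35 and 2.55 CPM (2.10, SE 0.40, adjusted p = 0.04, edgeR), and Adamtsl1 from 0.537, 0.985 and 1.34 CPM to 4.36, 4.87 and 2.69 CPM (2.06, SE 0.41, adjusted p = 0.044, edgeR), also without overlap. Mmp2, Mmp11, Adamtsl1 and Adamtsl2 were higher in the EC libraries too, and Mmp2 in both macrophage comparisons. Mmp13 had 36, 26 and 7 counts in control and 96, 83 and 171 counts in HSC-KO livers (2.64, SE 0.64, adjusted p = 0.090, edgeR), and Mmp27 had 34, 76 and 114 counts and 0, 0 and 9 counts (-4.35, adjusted p = 0.18, edgeR). Both genes stood apart between groups in the direction of the macrophage libraries, without a call. Mmp14 was 67.3, 49.9 and 45.9 CPM and 49.3, 46.8 and 29.3 CPM (-0.38, adjusted p = 0.59, edgeR), and Mmp19, the leading member, was 78.9, 98.1 and 79.7 CPM and 79.0, 96.1 and 64.6 CPM (-0.10, adjusted p = 0.89, edgeR). Adamts5 (1.47, adjusted p = 0.056, edgeR) and Adamts9 (1.37, adjusted p = 0.057, edgeR) were higher in each HSC-KO liver without a call, as were Timp3 (0.75, adjusted p = 0.060, edgeR) and Adamts1 (0.84, adjusted p = 0.058, edgeR), whose changes were also under the fold threshold. Timp2 and Mmp9 overlapped between groups, and Timp1 and Timp4 were too low to be tested.

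The liver count depended on single libraries. It was 1 without any one control or without HSC-KO replicate 2, 0 without HSC-KO replicate 1 and 8 without HSC-KO replicate 3, the male. The number of all genes called moved too. It was 425 in the main fit, 188 to 300 in the fits that left 0 or 1 member, 451 without HSC-KO replicate 3 and 821 with DESeq2. Without a library, Adamtsl2 was the called member in 3 of the fits that left 1 and Mmp2 in the other, and the adjusted p of the 5 genes reached 0.16 (edgeR). The directions of these 5 did not change in any fit. DESeq2 called 11, adding Mmp13, Adamts2, Adamts5 and Adamts9 as higher and Mmp27 and Adamts16 as lower. The 8 without HSC-KO replicate 3 added Adamts2, Adamts5 and Mmp27. With replicate number as a block, Adamts15 (adjusted p = 0.095, edgeR) and Adamtsl1 (adjusted p = 0.12, edgeR) were lost. In the same livers, stellate cell markers summed to 387 to 506 CPM in control and 619 to 742 CPM in HSC-KO, activated fibroblast markers to 49.1 to 123 CPM and 126 to 207 CPM, and Kupffer cell markers to 394 to 667 CPM and 57.2 to 86.6 CPM, with at least 1 count for each marker in each of these lists. Hepatocyte markers summed to 100445 to 124415 CPM and 134208 to 176540 CPM, cholangiocyte markers to 56.1 to 86.4 CPM and 27.1 to 36.8 CPM, lymphocyte markers to 4.31 to 7.92 CPM and 1.03 to 2.86 CPM, and neutrophil markers to 2.31 to 6.84 CPM and 1.13 to 1.99 CPM. Whether the member changes go with these cell types was not tested.

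**Figure D4:**
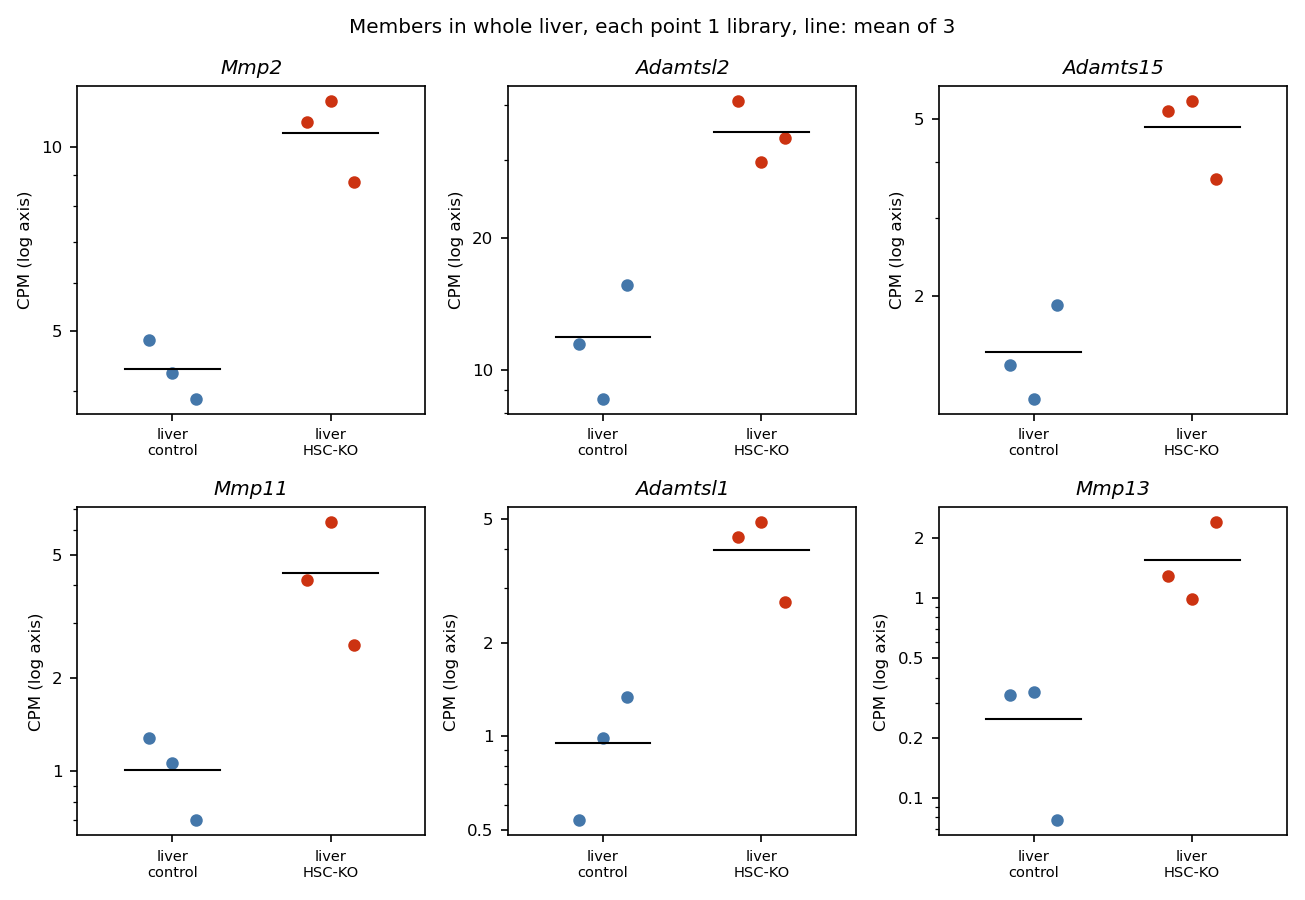
CPM of 6 members in control and HSC-KO livers on log axes, each point 1 library and each line a group mean of 3. All 6 were higher in each HSC-KO liver than in any control, and the change of Mmp13 was not called (adjusted p = 0.090, edgeR).

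Across the 4 knockout comparisons 40 of the 51 members were tested at least once. Of these, 25 were called at least once and 15 never, against 20.3% of 20193 genes called at least once. The remaining 11 members were tested in none of the 4. Mmp2 was the member called higher in all 4, but its call was lost without 4 of the 6 libraries in turn both in ECs, as given above, and in livers (control replicates 2 or 3, HSC-KO replicates 1 or 2, adjusted p = 0.05 to 0.072, edgeR). The 3 comparisons in HSC-KO mice used different control libraries, but 3 mice gave both cell types.

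**Figure D5:**
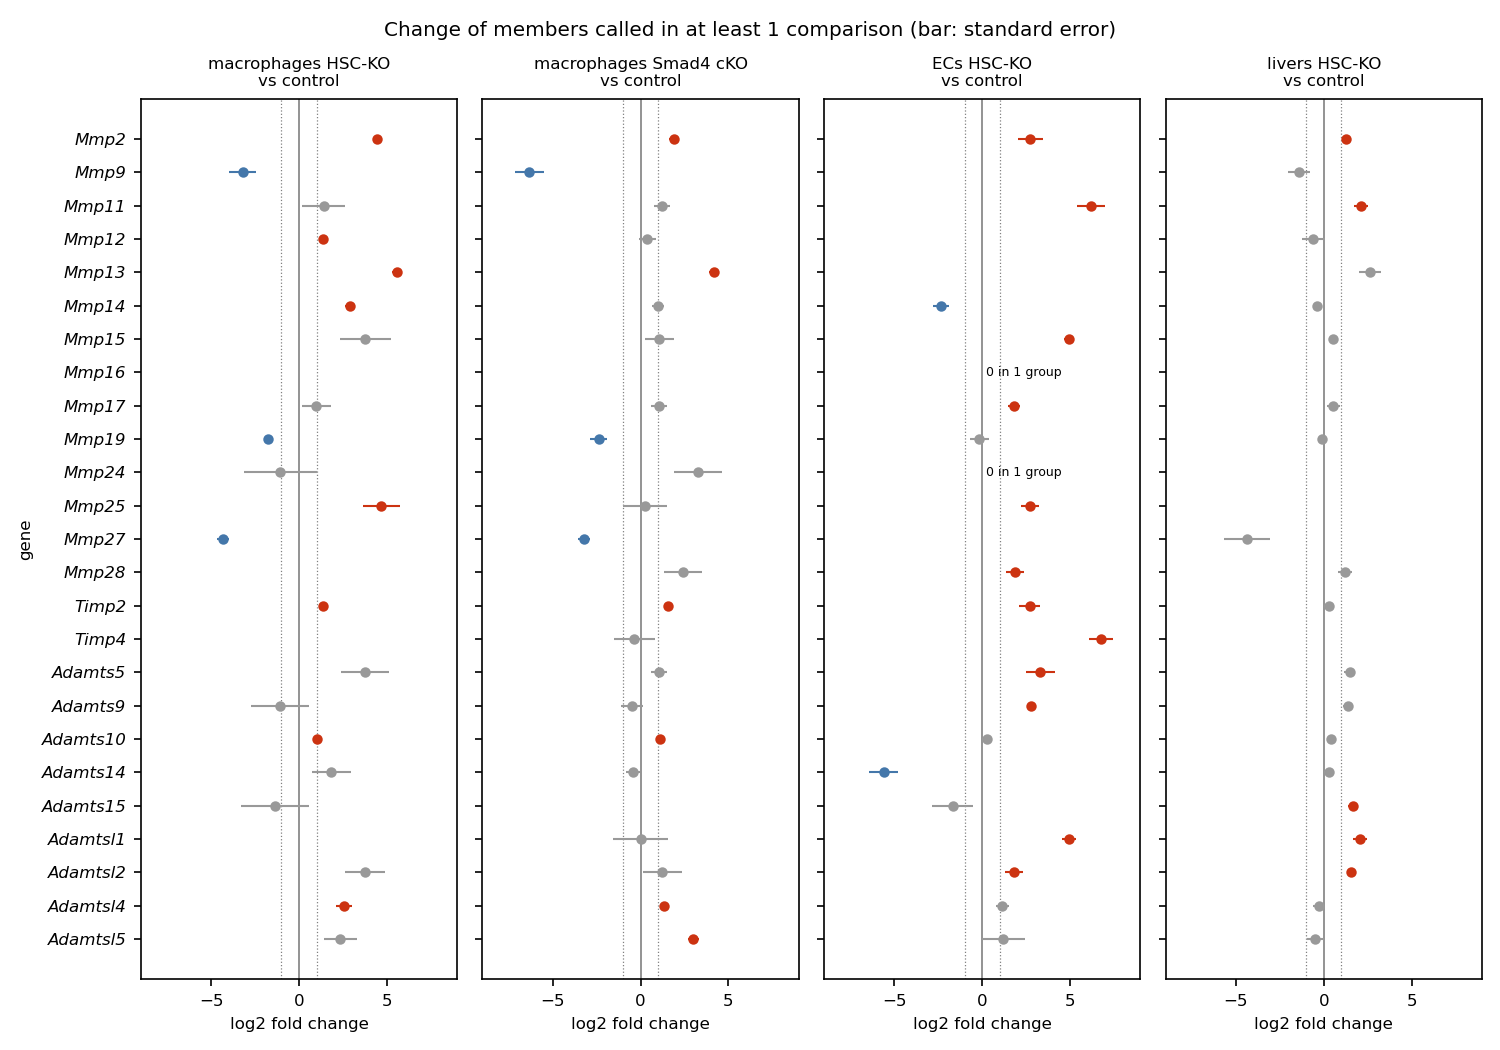
Log2 fold changes (points) with their SE (bars) of the 25 members called in at least 1 of the 4 knockout comparisons. Red points were called higher, blue points called lower and grey points not called by edgeR, dotted lines mark the fold threshold, a gap is a member not tested, and text marks a member at 0 in 1 group. Mmp2 was called as higher in all 4 columns, Mmp13 in both macrophage columns, and Mmp14 was higher in HSC-KO macrophages and lower in HSC-KO ECs.

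Genes that act with the family were followed in 6 lists. In the plasminogen system, whose product plasmin activates several pro-MMPs, Plau, the urokinase activator, rose in HSC-KO macrophages by 2.48 (SE 0.37, adjusted p = 0.0033, edgeR), and the tissue activator Plat rose in ECs by 2.50 (SE 0.22, adjusted p = 0.00034, edgeR). Among MMP activators and inhibitors other than TIMPs, Reck, a membrane-anchored MMP inhibitor, rose in ECs by 3.77 (SE 0.29, adjusted p = 0.00021, edgeR), the procollagen proteinase enhancer Pcolce rose in liver by 1.18 (SE 0.23, adjusted p = 0.043, edgeR), and Tfpi2 was lower in HSC-KO macrophages (adjusted p = 0.013, edgeR).

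Of a list of ADAM genes, relatives of the family that include sheddases of cell surface proteins, 4 of 11 tested rose in HSC-KO macrophages (Adam8, Adam15, Adam19 and Adam22) and Adam10 fell by 1.37 on the log2 scale, against 6.32% of all genes called higher and 5.34% called lower. In Smad4 cKO macrophages, with 12 tested, Adam15 and Adamdec1 rose and Adam10 fell by 1.13, against 2.76% of all genes higher and 2.67% lower. Adam15 rose in all 4 comparisons, by 2.79, 1.15, 1.66 and 1.26 in HSC-KO macrophages, Smad4 cKO macrophages, ECs and liver. Of 9 tested in ECs, Adam12 was also higher and Adam9 lower (7.68% and 6.01% of all genes), and of 11 tested in livers, Adam23 was lower (1.45% of all genes).

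Of 10 basement membrane genes, 6 rose in ECs: the collagen IV genes Col4a1 by 1.46 and Col4a2 by 1.38, Lama5 by 1.27, Lamb1 by 5.02, Lamc1 by 2.14 and Nid2 by 3.25, against 7.68% of all genes called higher. In liver Col4a1, Col4a2 and Lamb1 rose by 1.59, 1.43 and 1.53, against 1.03% of all genes, whereas in macrophages the only call was Lamb2, lower by -1.47 in HSC-KO (5.34% of all genes). In the list of fibrillar collagens and elastic fibre genes, Ltbp1, a binder of latent TGFβ, rose in HSC-KO macrophages by 3.11, in ECs by 5.60 and in liver by 1.54, Ltbp3 rose in HSC-KO macrophages and ECs by 2.68 and 2.52, and elastin (Eln) rose in ECs by 3.41. Fibrillar collagen genes gave 0 calls by edgeR in the 4 comparisons, although in liver 5 of 6 tested had an unadjusted p under 0.05, against 12.9% of all genes (2 of 5 in HSC-KO macrophages, against 33.1%). Of the hyalectans and von Willebrand factor, which ADAMTS enzymes cut, Vwf was the single call, lower in liver by -1.88 (SE 0.34, adjusted p = 0.031, edgeR).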

How the data were processed

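RNA was isolated from sorted macrophages and ECs with a column kit and from livers with TRIzol, and libraries were sequenced by the authors. Per the labels and the methods of the study, the authors aligned reads to mm10 (GRCm38) with HISAT2 and deposited raw read counts per gene from featureCounts as 4 tables of 48820 entries; versions, annotation release and strand use are not given in the sources used here, so reads of genes that overlap on opposite strands cannot be told apart. Columns of the authors' own comparisons were not used.

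Groups came from the labels. Each comparison was fitted on all genes of its own table with edgeR 4.0.16 (R 4.3.3): filterByExpr (minimum count 10, minimum total 15), TMM scaling, the quasi-likelihood test and Benjamini-Hochberg adjustment over all genes tested. Calls needed an adjusted p under 0.05 together with a log2 change of more than 1 either way; the SE is the fold change divided by the square root of F. Differences between comparisons, and ECs against macrophages, were fitted on the joined counts. CPM values are TMM-scaled within a table, and levels per kb use GENCODE exon unions on GRCm38. Scripts were tested on simulated data. Alternatives were DESeq2 1.42.0, other scalings and filters, a replicate block, sex by Xist above 1 CPM, each library left out and, for ECs against macrophages of HSC-KO mice, limma-voom with the mouse as a random effect. The members and the gene lists were chosen with earlier results of these data known, so they are not independent of them. Named genes are, per comparison, the called members (at most 20), the 8 highest members per control group, and all Timp genes, Mmp2, Mmp9, Mmp13 and Mmp14; others were chosen after their values were seen. Promoter sequences and starts are from RefSeq. The plasminogen list is reported only in part here.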

Additional observations from a re-analysis of the deposited data

Results flagged for a closer look

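In all, 4 members changed differently between 2 settings by a test of the difference itself with edgeR's quasi-likelihood test. Between the macrophage changes this was 1 of 35 members tested (2.86%), against 2.61% of all genes. Between ECs and macrophages it was 3 of 38 (7.89%), against 12.3% of all genes. Mmp2 rose further in HSC-KO than in Smad4 cKO macrophages, by 2.57 on the log2 scale (SE 0.27, adjusted p = 6e-04), with all 6 knockout libraries above their own controls. Between ECs and macrophages of HSC-KO mice, Mmp14 differed by -5.24 (SE 0.63, adjusted p = 3e-04), all 3 EC libraries being lower and all 3 macrophage libraries higher than their controls. Adamts14 differed by -7.45 (SE 1.59, adjusted p = 0.0092) and Mmp11 by 4.79 (SE 1.29, adjusted p = 0.028), and the latter was not called with replicate number as a block (4.58, adjusted p = 0.067), although the numbers do not mark the same mouse, nor by limma-voom with the mouse as a random effect (3.42, adjusted p = 0.56).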

How the results depend on the processing

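In the macrophage comparisons the number of called members stayed within 1.5 times its value under every alternative run (10 to 13 in HSC-KO, 7 to 9 in Smad4 cKO), as it did in ECs (11 to 19) and between control ECs and control macrophages (18 to 26). In livers the 5 calls became 11 with DESeq2, 3 without the low-count filter, 3 with the replicate block, 8 with sex as a covariate, which with a single male library gives the same 8 members as leaving out HSC-KO replicate 3, and 0 to 8 when 1 library was left out. Calls over all genes in livers ran from 188 to 821 in these fits, against 425 in the main fit. For the difference between the macrophage changes the count of 1 became 3 with DESeq2, 3 with a mean count of at least 50 and 2 with sex as a covariate, and it was 1 to 2 without a library. For the difference between ECs and macrophages the count of 3 became 7 with DESeq2 and ranged from 2 to 5 without a library, and it was 3 by limma-voom with or without the mouse as a random effect (consensus correlation -0.112). The uncalled value of Timp4 in Smad4 cKO macrophages, -0.36, ran from -1.14 to 0.58 when 1 library was left out, changing sign to 0.58 without Smad4FF replicate 2 and to 0.21 without Smad4 cKO replicate 1. Of 67 calls of named members in all comparisons, DESeq2 and DESeq2's size factors in edgeR each kept 67, the replicate block kept 58, and 47 were kept whichever library was left out. Beyond those given with the results, the block ended the calls of Adamts12, Adamtsl1, Mmp17 and Mmp25 between control ECs and control macrophages. Deviations of same-numbered libraries correlated at -0.107 to 0.162 across the 4 comparisons. Only in ECs did every library correlate best with its own number, at 0.033 to 0.117. Outside ECs the replicate numbers did not consistently pair the libraries. The causes of these shifts were not tested. The values of Mmp16, Mmp24, Mmp25 and Timp1 and the liver values of Mmp13 and Mmp27 rest on low counts.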
